A study of Mus musculus with 28 samples.

Results

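The tumours compared here were the 5 T-cell-rich and the 5 T-cell-poor hepatocellular carcinomas among 14 tumours of c-Myc/Alb-cre transgenic mice, chosen by the level of the T cell receptor subunits in the tumour RNA. For each tumour the counts per 1000000 counts of the library (CPM) of Cd3e, Cd3d and Cd3g were summed, and the 5 highest and the 5 lowest sums made the classes. The series holds 28 RNA-seq libraries, 14 of tumour and 14 of peritumour tissue, 1 of each from every animal. All animals carry the same c-Myc transgene with Cre recombinase under the albumin promoter, which is active in hepatocytes; their ages and any treatment are not given in the labels. The labels split the animals by the letters F (11 animals) and M (3 animals) without saying what the letters stand for, and each library is named here by its letter and replicate number.

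The Cd3 chains form the signalling part of the T cell receptor complex and are carried by T cells, so their RNA in a piece of tissue is a common measure of how much T cell RNA it holds. T cells find antigen as peptide on major histocompatibility complex (MHC) molecules: class I on nearly all cells, read by CD8 T cells, and class II mainly on dendritic cells, macrophages and B cells, read by CD4 T cells. They are drawn in by chemokines such as Cxcl9, which interferon gamma from T cells and natural killer cells induces. Interferon gamma also induces Ciita, the master regulator of the class II genes. In bulk tissue, fewer cells of a type and less RNA per cell cannot be told apart.

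Cd3 was scarce in every tumour. The summed level was 13.8 CPM in tumour F3, 10.6 in F2, 6.30 in F5, 5.83 in F9 and 3.89 in F7, the 5 T-cell-rich tumours. The T-cell-poor tumours were M1 with 2.69 CPM, F1 with 2.38, F6 with 1.5, M2 with 1.28 and M3 with 1.02. The middle tumours were F8 with 3.76 CPM, F11 with 2.94, F4 with 2.82 and F10 with 2.79. The bounds of the classes were narrow: F7, just inside the T-cell-rich class, held 66 Cd3 counts and F8, just outside, 64. M1, just inside the T-cell-poor class, held 40 counts and F10, just outside, 49. The exact 95% Poisson intervals, which cover counting error only, were 3.01 to 4.95 CPM for F7 and 2.90 to 4.8 for F8, so the order of these neighbours was not resolved. With TMM-scaled totals (totals corrected for library composition) F8 took the place of F7 in the T-cell-rich class. These sums chose the classes and carry no test.

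**Figure D1:**
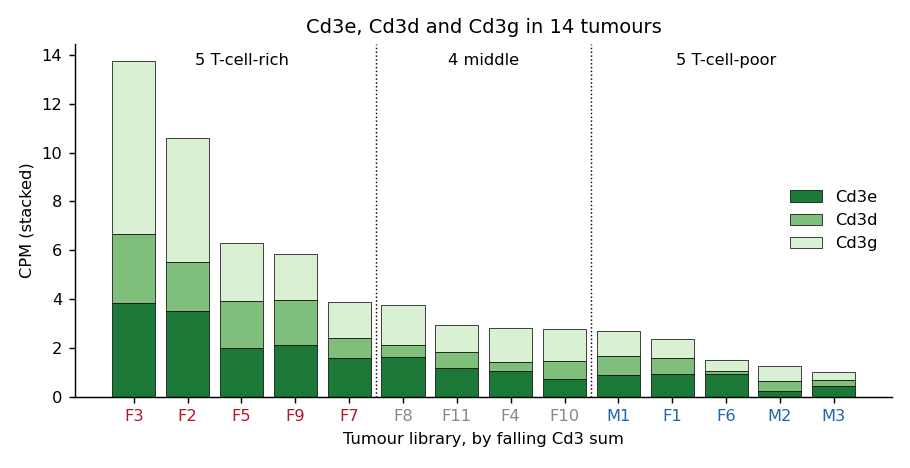
Stacked CPM of Cd3e, Cd3d and Cd3g (vertical axis) in the 14 tumour libraries, ordered by falling sum; dotted lines part the 5 T-cell-rich, 4 middle and 5 T-cell-poor tumours. The sum falls from 13.8 CPM in F3 to 1.02 in M3, and no step marks either bound of the classes.

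The classes were not balanced over the other labels. All 5 T-cell-rich tumours and all 4 middle tumours were F animals, while 3 of the 5 T-cell-poor tumours were the M animals, so T-cell-poor and M cannot be told apart over much of the contrast. Of the T-cell-rich animals 2 had sample codes of the number-dash style and 3 of the letter-number style; the T-cell-poor class had 4 and 1. Library totals were even, at 15589026 to 17155298 estimated counts in the T-cell-rich class and 14884138 to 15982812 in the T-cell-poor class. The erythroid precursor list summed to 242 to 1730 CPM in the T-cell-rich and 335 to 2466 CPM in the T-cell-poor tumours. That of hepatocyte identity summed to 23316 to 51423 and 28925 to 47188 CPM, so hepatocyte RNA was abundant in all 10 and the ranges overlapped.

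The first sequences shown are promoters of genes that the comparison turns on: a pair of class II genes, which separated the classes, an interferon-inducible proteasome gene, which also did, and the peroxisomal thiolase gene Acaa1b, which separated them in the other direction. Each runs from 250 bases before to 50 after the gene's start, in RefSeq's table for GRCm38.p6, which held 6 of the 9 genes looked up. H2-Aa lies at chr17:34287774-34288073, minus strand, H2-Eb1 at chr17:34305617-34305916, plus strand, Psmb8 at chr17:34197945-34198244, plus strand and Acaa1b at chr9:119157044-119157343, minus strand. Capitals mark 2 motifs that were searched on both strands, with no overlap between them: the core of the Y box, CTGATTGG, known from class II promoters, and the gamma-activated site TTCNNNGAA, known from promoters that respond to interferon gamma.
H2-Aa: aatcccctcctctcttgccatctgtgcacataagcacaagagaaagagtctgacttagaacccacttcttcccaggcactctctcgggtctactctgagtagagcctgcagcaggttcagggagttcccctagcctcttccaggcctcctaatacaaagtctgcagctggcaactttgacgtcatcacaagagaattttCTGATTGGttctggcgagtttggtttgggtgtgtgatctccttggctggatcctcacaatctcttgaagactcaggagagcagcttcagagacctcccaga
H2-Eb1: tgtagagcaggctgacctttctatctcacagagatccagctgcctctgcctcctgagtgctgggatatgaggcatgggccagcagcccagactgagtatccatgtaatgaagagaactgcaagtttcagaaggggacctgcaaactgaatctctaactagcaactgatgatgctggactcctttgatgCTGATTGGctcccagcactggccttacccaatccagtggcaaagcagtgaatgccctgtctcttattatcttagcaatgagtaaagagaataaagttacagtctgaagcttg
Psmb8: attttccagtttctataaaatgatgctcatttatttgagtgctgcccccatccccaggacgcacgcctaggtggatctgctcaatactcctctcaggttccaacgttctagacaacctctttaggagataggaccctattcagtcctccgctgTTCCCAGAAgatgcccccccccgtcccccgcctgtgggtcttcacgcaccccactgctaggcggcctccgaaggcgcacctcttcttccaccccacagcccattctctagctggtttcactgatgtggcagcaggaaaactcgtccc
Acaa1b: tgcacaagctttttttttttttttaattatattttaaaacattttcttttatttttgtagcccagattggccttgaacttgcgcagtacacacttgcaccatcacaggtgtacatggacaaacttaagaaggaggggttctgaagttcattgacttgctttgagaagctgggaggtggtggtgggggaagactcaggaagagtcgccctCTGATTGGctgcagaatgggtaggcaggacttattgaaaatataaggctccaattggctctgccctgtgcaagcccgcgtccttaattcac
The Y box letters stand 51 bases before the start of H2-Aa, 62 before that of H2-Eb1 and 41 before that of Acaa1b, and the gamma-activated letters 97 before that of Psmb8. Of all 32851 promoters in the table, 4.1% held the Y box letters and 8.3% the gamma-activated letters. A match describes the letters only. The promoters of Cxcl9 and Eci2 were also found and are not printed: that of Cxcl9 held the Y box letters on the minus strand and no gamma-activated letters, and that of Eci2 held neither.

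Across all other genes the classes differed in many values but in none that passed the test. edgeR's quasi-likelihood test on 13166 genes called 0 at an adjusted p of 0.05 (0% of those tested), with a lowest adjusted p of 0.182, while 1913 genes had an unadjusted p under 0.05, 1073 of them higher in the T-cell-rich class (1650 of 2005 with totals alone as scaling). DESeq2 on the same libraries called 338, of which 250 were higher and 88 lower in the T-cell-rich class. The tumours were selected on Cd3 in these same libraries, so each p asks only whether a gene goes with the Cd3 level, and values of T cell genes are given as a description. The biological coefficient of variation among tumours of a class was 0.44. In 377 genes (2.86% of those tested) every T-cell-rich tumour lay above every T-cell-poor one, and in 50 (0.38%) below, on CPM. CPM uses library totals without the TMM factors of the fit. These were 0.942 to 1.26 in the T-cell-rich and 0.91 to 0.975 in the T-cell-poor tumours. CPM thus leans towards higher values in the T-cell-rich class, and separations given here and below may not all hold with TMM scaling, which was not tested. Of all genes tested, 47.0% had a log2 difference above 0. A gene of low level could pass the filter on low counts through a single class, as Skap1 and Tbx21 did through the T-cell-rich class. Counts below of members tested that were higher or did not overlap include such genes.

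With the log2 Cd3 sum taken as a number over all 14 tumours, 304 of 13816 genes passed edgeR's test, 270 rising with Cd3 (1.95%) and 34 falling (0.246%). A slope below is the log2 fold change per doubling of the Cd3 sum. These calls were fragile: 44 genes were called with the letter as a covariate, 1 among the 11 F tumours, 28 without tumour F2, 21 without M3, 17 with the Cd3 sum over TMM-scaled totals and 0 without F2, F3 and F5. Of the 304, 303 could be tested among the F tumours and all 303 kept their sign there. Without F2, F3 and F5, 277 could be tested and 261 kept it. A gene is said below to rise or fall with Cd3 only where it was among the 304. Genes that T cells carry share the source of the Cd3 signal. Their slopes, p-values and counts set beside all genes are a description and support nothing.

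The receptor's other genes ran with the chains that set the classes, as a description. In the list of T cell receptor and signalling genes, all 24 members tested were higher on average in the T-cell-rich class, with a median log2 difference of 1.46 beside -0.03 over all genes. Of these, 9 rose with Cd3 (beside 1.95% of all genes), the lowest adjusted p being that of Cd6, a receptor that tunes T cell activation (slope 0.93 ± 0.13; edgeR, adjusted p = 0.00928). In 12 of the 24 the classes did not overlap (beside 2.86% of all genes), among them Cd2, Cd4, Cd5, Cd8b1, Lck, Thy1 and Zap70. Lck, the kinase that starts receptor signalling, was at 6.79, 7.89, 5.83, 4.39 and 4.36 CPM in F3, F2, F5, F9 and F7. It was at 2.62, 1.25, 2.25, 0.957 and 0.576 CPM in M1, F1, F6, M2 and M3, so the classes stood apart. Cd247, the zeta chain of the same receptor complex, overlapped: 4.47, 3.30, 2.00, 1.91 and 1.96 CPM against 1.76, 2.01, 0.677, 1.96 and 1.69, a log2 difference of 0.58 ± 0.40 (SE). Natural killer cells carry Cd247 as well. The summed list ran from 79.2 to 133 CPM in the T-cell-rich, 41.9 to 54.1 in the middle and 22.5 to 51.6 in the T-cell-poor tumours, so the middle tumours lay with the T-cell-poor ones.

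Both T cell arms were higher. Cd4, the coreceptor of helper and regulatory T cells, which mouse dendritic cells can carry too, was at 9.28, 8.40, 7.29, 3.20 and 4.53 CPM in the T-cell-rich class and at 2.55, 1.19, 2.00, 3.00 and 2.05 in the T-cell-poor class, with no overlap. Cd8a, the coreceptor of cytotoxic T cells, was at 6.41, 6.03, 5.54, 4.96 and 3.00 CPM against 3.16, 1.45, 1.75, 1.91 and 1.47, where F7 lay just below M1. The log2 differences were 1.42 ± 0.36 and 1.25 ± 0.34 (SE, n = 5 against 5). Per length, in transcripts per 1000000 (TPM), the ratio of Cd4 to Cd8a was 1.46 in F3, 1.4 in F2, 1.32 in F5, 0.652 in F9 and 1.56 in F7. In the T-cell-poor tumours it ran from 0.818 to 1.57, so the balance of the coreceptors did not separate the classes.

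T cell programmes were uneven among the T-cell-rich tumours. Foxp3, which defines regulatory T cells, was at 0.754, 0.854 and 0.772 CPM in F3, F2 and F5 but at 0.064 and 0.122 in F9 and F7. The T-cell-poor class ran from 0.0644 to 0.207 CPM, so F9 and F7 lay at its level. It was too low for the 5 against 5 test and had a slope of 0.92 ± 0.22 (edgeR, adjusted p = 0.0473). Ctla4, an inhibitory receptor of activated and regulatory T cells, split the same way, at 0.498, 0.513 and 0.291 against 0.125 and 0.0589 CPM. Tcf7, a factor of naive and memory T cells, was at 8.03, 6.03 and 11.7 CPM in F3, F2 and F5 and at 2.82 and 2.36 in F9 and F7, and Bcl11b, which keeps T cell identity, at 2.12, 2.31, 1.22, 0.690 and 0.118. In the T-cell-poor class Bcl11b ran from 0.191 to 0.264 CPM, so F7 was not above it. The lowest values of Foxp3, Ctla4 and Bcl11b rest on a few counts a library and do not order the tumours that hold them.

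Gzmb, a granzyme of activated killer cells, was highest in F9 and F7, at 5.96 and 6.36 CPM, beside 3.67, 1.92 and 3.85 in F3, F2 and F5. The T-cell-poor tumours ran from 1.54 to 4.47 CPM, and the log2 difference was 0.58 ± 0.47 (edgeR, adjusted p = 0.585). Ctsw, a protease of cytotoxic cells, rose with Cd3 with a slope of 0.70 ± 0.13 (edgeR, adjusted p = 0.0215) and did not overlap, at 2.2 to 6.35 against 0.626 to 1.68 CPM. Tbx21, the factor that drives interferon gamma programmes, was at 0.758 to 1.38 against 0.192 to 0.383 CPM. It passed the filter on low counts only through the T-cell-rich tumours, so its lack of overlap supports nothing. Ifng itself, the gene of interferon gamma, stayed below 1 CPM in all 14 tumours; its highest value, 0.638 CPM, was in the T-cell-poor tumour M2. Of the cytotoxic and NK cell list all 10 tested members were higher on average in the T-cell-rich class (median 1.14). Of these, 2 (20%, beside 2.86% of all genes), Nkg7 and Ctsw, did not overlap.

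The immune checkpoint list holds genes that restrain T cells, but also others such as Cd80, Cd86, Tnfrsf9 and Tox. It had a median of 0.85, with 12 of 13 above 0. In 4 (30.8%, beside 2.86% of all genes) the classes did not overlap: Havcr2, Cd244a, Entpd1 and Vsir. Vsir, an inhibitory ligand of myeloid and T cells, was at 26, 36.1, 31.1, 22.3 and 21.7 CPM in the T-cell-rich tumours and at 8.32 to 15.7 in the T-cell-poor ones. It rose with Cd3 with a slope of 0.38 ± 0.08 (edgeR, adjusted p = 0.0357). Pdcd1, which encodes PD-1, was under 0.3 CPM in 13 of the 14 tumours and at 0.706 CPM in F2. Cd274, its ligand PD-L1, was at 8.41, 8.34, 12.5, 20.1 and 17.0 CPM in the T-cell-rich class and reached 15.5 in M2 among the T-cell-poor tumours, so the classes overlapped (log2 difference 0.85 ± 0.45, edgeR, adjusted p = 0.404).

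Among chemokines that draw T cells and their receptors, all 17 members tested were higher on average in the T-cell-rich class, with a median log2 difference of 1.31. Of these, 5 did not overlap (29.4% of the 17 beside 2.86% of all genes), among them Cxcr3, Cxcl16, Cx3cl1 and Cx3cr1. The list holds receptors that T cells themselves carry. Of the list 8 rose with Cd3 (beside 1.95% of all genes), among them those named and Cxcr6, Ccr2 and Ccl8. Cx3cr1, the fractalkine receptor of monocytes and effector lymphocytes, had the lowest adjusted p of the list, with a slope of 0.85 ± 0.10 (edgeR, adjusted p = 0.00172). It was at 19.8, 42.9, 11.5, 8.53 and 7.48 CPM against 5.98, 5.61, 5.26, 4.27 and 1.79. Its ligand Cx3cl1, made by epithelium and endothelium, was at 18.5, 52.4, 18.5, 18.3 and 8.25 CPM against 3.14 to 7.65, a log2 difference of 1.94 ± 0.42 (edgeR, adjusted p = 0.236).

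Cxcr3, the receptor for Cxcl9 on activated T cells, was at 6.17, 5.39, 2.91, 1.63 and 1.71 CPM against 0.528 to 1.41, with a slope of 0.81 ± 0.13 (edgeR, adjusted p = 0.0106). Cxcl9, its ligand, was at 31.1, 23.3 and 46.8 CPM in F3, F2 and F5, the tumours richest in Cd3, and at 215 and 160 in F9 and F7. The T-cell-poor tumours were at 21.8, 22.1, 14.3, 77.4 and 16.5 CPM, and the middle ones at 83.9 to 148, above F3, F2 and F5. Its slope was 0.24 ± 0.45 (edgeR, adjusted p = 0.867).

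Of the lymphoid tissue list, Ltb and Madcam1 were high in few tumours. The list had a median of 0.45, with 3 of 5 members tested above 0 and none without overlap. Ccl19 was at 0 CPM in F3, F2 and F5, and highest in the middle tumour F11 at 2.64 and in F9 at 2.14. Ccl21a ran from 0.152 to 4.09 CPM in the T-cell-rich and from 0 to 3.06 in the T-cell-poor tumours. Ltb, a lymphotoxin chain of lymphocytes that shapes lymphoid tissue, rose with Cd3, at 17.8, 20.2 and 6.99 CPM in F3, F2 and F5 beside 3.39 and 2.59 in F9 and F7 and 0.576 to 2.88 in the T-cell-poor class (slope 0.97 ± 0.16; edgeR, adjusted p = 0.0137). Madcam1, an adhesion molecule of gut and mucosal vessels, was at 20.5 CPM in F2 and at most 1.92 elsewhere. Cxcl13, the chemokine that draws B cells into follicles, was at most 0.269 CPM in the 10 tumours of both classes; its highest value, 1.94 CPM, was in the middle tumour F8. Cd72, a B cell receptor inhibitor that macrophages can carry too, rose with Cd3 (slope 0.51 ± 0.12; edgeR, adjusted p = 0.0446) and ran from 5.95 to 26.2 against 3.16 to 6.08 CPM. Jchain, the joining chain of secreted antibody, was at 33.6, 12.6, 35.7, 15.9 and 29.7 CPM against 7.86, 4.42, 4.76, 30.7 and 2.37, so M2 alone of the T-cell-poor class lay in the range of the T-cell-rich.

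The class II genes had the second highest median of the lists with at least 9 members tested. All 9 members tested were higher on average in the T-cell-rich class (median 1.97), and in 6 of the 9 (66.7%, beside 2.86% of all genes) the classes did not overlap: H2-Aa, H2-Ab1, H2-Eb1, H2-DMa, H2-DMb1 and Ctss. H2-Ab1, the beta chain of the I-A molecule, was at 255, 240, 107, 429 and 247 CPM in F3, F2, F5, F9 and F7. The T-cell-poor tumours were at 89.2, 54.5, 45.9, 58.6 and 36.0 CPM, a log2 difference of 2.06 ± 0.38 (edgeR, adjusted p = 0.236). H2-Eb1, whose promoter is shown above, was at 74.5 to 243 CPM against 24.6 to 55.2 and had the lowest adjusted p of the contrast together with Col15a1 (2.06 ± 0.34; edgeR, adjusted p = 0.182). H2-Aa was at 117 to 274 CPM against 36.2 to 98.8, and rose with Cd3 (slope 0.71 ± 0.17; edgeR, adjusted p = 0.0473). H2-DMb2, which helps load peptide on class II molecules and is nearly identical to H2-DMb1, rose as well (slope 0.76 ± 0.17; edgeR, adjusted p = 0.0378). Cd74, the chain that guides class II molecules, was at 777, 708, 266, 1197 and 683 CPM against 107 to 283, where F5 lay below M1.

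Within the T-cell-rich class the class II genes were not ordered as Cd3 was: F9 had the highest H2-Ab1, and the middle tumour F11 was at 389 CPM. Ciita was at 50.4 and 36.9 CPM in F9 and F7 and at 29.8 in F11, beside 13.8, 9.75 and 6.53 in F3, F2 and F5 and 2.75 to 6.95 in the T-cell-poor class. In the interferon gamma response list 16 of 17 members were higher on average (median 0.82), and none of the 17 separated the classes. Without F9 that median was 0.48. The type I interferon list had a median of 0.41 and likewise no member without overlap. That median was 1.22 without M2, 0.23 without F1 or M3, 0.25 without F9 and 1.18 with F animals only.

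Class I genes had a median of 0.60 (0.24 without F9), with 15 of 16 above 0. In 2 of 16 (12.5%, beside 2.86% of all genes) the classes did not overlap, Psmb8 and H2-M3. Psmb8, a subunit of the proteasome that cuts peptides for class I and is induced by interferon, was at 31.3, 28.4, 22.8, 125 and 47.4 CPM against 13.0, 11.5, 15.3, 18.4 and 8.26 (log2 difference 1.86 ± 0.50; edgeR, adjusted p = 0.236). B2m, the light chain of all class I molecules, was at 1334, 1027, 441, 1334 and 1098 CPM against 1140, 935, 451, 964 and 655, a log2 difference of 0.21 ± 0.35 (edgeR, adjusted p = 0.805). The highest B2m of all tumours, 2004 CPM, was in the middle tumour F4.

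**Figure D2:**
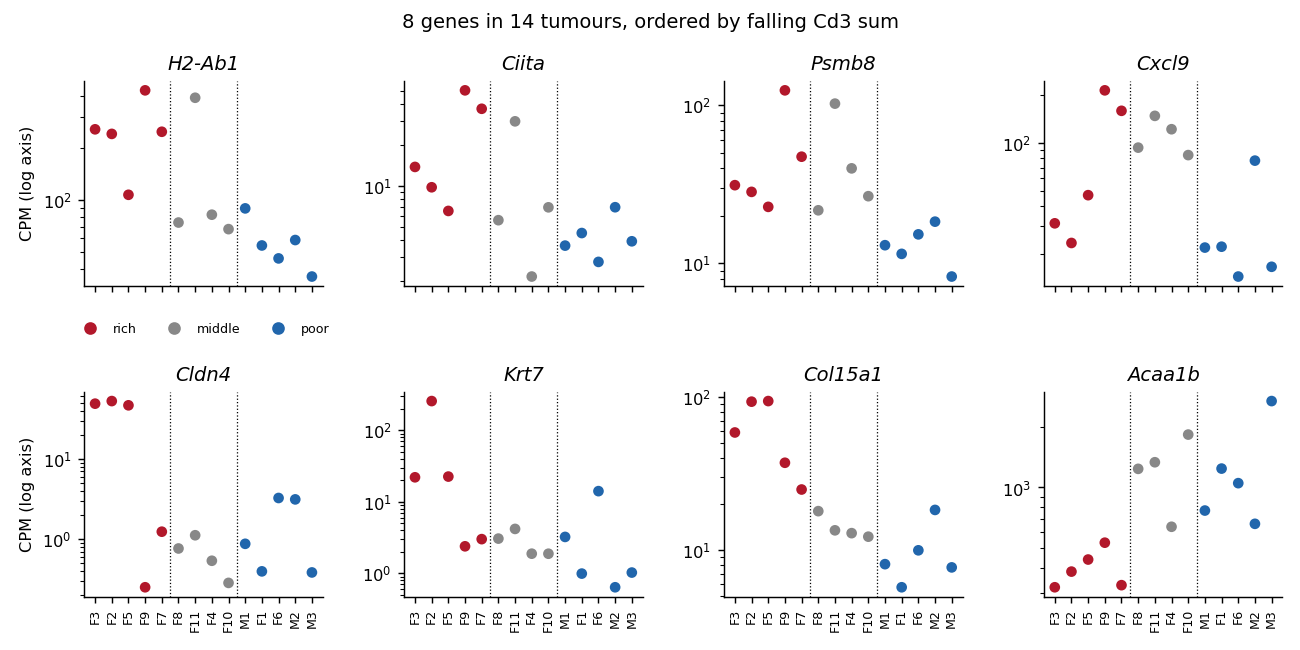
CPM on log axes (vertical) of 8 genes in the 14 tumours, ordered from left to right by falling Cd3 sum, with dotted lines between T-cell-rich (red), middle (grey) and T-cell-poor (blue) tumours. H2-Ab1 and Col15a1 are higher in all 5 T-cell-rich than in all 5 T-cell-poor tumours and Acaa1b is lower, while Ciita and Cxcl9 peak in F9, F7 and F11 and Cldn4 in F3, F2 and F5.

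In the monocyte and macrophage list all 19 members were higher on average (median 0.86). The classes did not overlap in 3 (15.8%, beside 2.86% of all genes): Cx3cr1, C1qb and Aif1. The summed list was 986 to 2931 CPM against 493 to 946. Lyz2, a lysozyme of macrophages and neutrophils, rose with Cd3 (slope 0.52 ± 0.13; edgeR, adjusted p = 0.0473), at 246, 615, 189, 101 and 149 CPM against 47.1 to 135. Itgax, the CD11c integrin of dendritic cells and some macrophages, did not overlap, at 12.5 to 26.8 against 4.36 to 10.7 CPM. Among dendritic cell genes, Xcr1, the receptor of cross-presenting dendritic cells, and Fscn1, an actin bundler of mature ones, rose with Cd3 (slopes 0.70 ± 0.14 and 0.87 ± 0.19; edgeR, adjusted p = 0.0285 and 0.0378). Fscn1 was at 44.8, 120 and 106 CPM in F3, F2 and F5 beside 14.4 and 18.3 in F9 and F7. Clec4f, a marker of Kupffer cells, the resident macrophages of the liver, was at 63.6, 40.5, 14.1, 14 and 64.0 CPM against 91.4, 19.1, 46.4, 16.6 and 9.79, and its fitted log2 difference of -0.04 ± 0.64 (edgeR, adjusted p = 0.986) turned positive with totals alone as scaling. The Kupffer cell list had a median of 0.04. The neutrophil list had a median of 0.55 and the granulocyte precursor list one of 0.30, with no member that separated the classes, and among F animals these medians were -0.30 and -0.77.

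Bile duct genes had the highest median of all lists tested, 3.35 over 9 members, with 8 of 9 above 0, but no member separated the classes. Without F2 the median was -0.14. Krt19, a keratin of bile duct cells, was at 799 CPM in F2, at 7.85, 17.9, 4.20 and 4.65 in F3, F5, F9 and F7, and at 39.0 in the T-cell-poor tumour F6. Its log2 difference of 3.77 ± 1.68 (edgeR, adjusted p = 0.335) was -0.25 without F2. Cldn4, a tight junction protein of ducts, was the gene of at least 10 CPM with the steepest rise, with a slope of 1.58 ± 0.39 (edgeR, adjusted p = 0.0473). It was at 48.8, 52.5 and 46.5 CPM in F3, F2 and F5 and at 0.251 and 1.24 in F9 and F7, with at most 3.25 in all other tumours. Krt7 (22.0, 256, 22.5, 2.38 and 3.00 CPM) and Epcam (27.4, 126, 27.1, 2.82 and 3.24 CPM), which mark ducts and progenitor cells, had the same tumours on top, with 14.1 and 8.20 CPM in F6 the highest values outside them. Afp, the fetal liver protein used as a tumour marker, was at 4153, 477 and 12740 CPM in F3, F2 and F5, at 10.0 and 120 in F9 and F7, and at 2.18 to 1562 in the T-cell-poor class, and its difference did not pass (3.23 ± 1.91; edgeR, adjusted p = 0.457).

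The other steep rises also rested on few tumours. Ehf, an epithelial transcription factor, and Plagl1, a zinc finger factor of imprinted expression, were at 137 and 150 CPM in F2 and at most 3.32 and 5.26 in all other tumours. Without F2 the log2 difference of Plagl1 was -0.60. Slc13a3, a dicarboxylate transporter, was at 205, 75.1 and 68.4 CPM in F3, F5 and F9 but at 5.58 in F2, and it passed without F2 too (edgeR, adjusted p = 0.0391). Prom1, a membrane protein of progenitor and duct cells, was at 118 CPM in F2 and at 15.1 and 15.3 in F3 and F5.

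The stellate cell and fibroblast list had a median of 0.97, 14 of 16 above 0, and 0.70 without F2. Col15a1, a collagen of basement membranes that is not in the list, was at 58.9, 93.5, 94.4, 37.3 and 25.0 CPM against 8.13, 5.74, 10.0, 18.4 and 7.74 (log2 difference 2.43 ± 0.39; edgeR, adjusted p = 0.182). It rose with Cd3, with a slope of 0.92 ± 0.16 (edgeR, adjusted p = 0.021). Col1a1, the main fibrillar collagen, was at 223, 413, 567, 113 and 169 CPM against 87.6, 53.4, 142, 92.9 and 26.6, where F9 lay below F6. Col1a2, Col3a1 and Lum, a proteoglycan that binds collagen, rose with Cd3. So did Thy1, at 7.24 to 22.6 against 1.86 to 5.49 CPM; mouse T cells carry Thy1 as well as fibroblasts, so it is counted in both lists. Of the TGF-beta pathway all 10 members were higher on average (median 0.90). Tgfbr2, the receptor that binds the ligand, rose with a slope of 0.46 ± 0.08 (edgeR, adjusted p = 0.0186), at 91.7, 114, 97.8, 43.7 and 36.6 against 29.1 to 40.0 CPM, and Tgfbi, a secreted matrix protein that the pathway induces, with a slope of 0.43 ± 0.09 (edgeR, adjusted p = 0.0294).

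Il18r1, a receptor chain for interleukin 18 on T and natural killer cells, had the lowest adjusted p of the interleukin list (slope 1.08 ± 0.16; edgeR, adjusted p = 0.0099) and also passed with the letter as a covariate and without F2. Spp1, osteopontin, which both macrophages and duct cells make, was at 150, 708, 72.0, 39.5 and 18.8 CPM against 70.5, 24.5, 33.3, 18.2 and 19.1 (slope 1.12 ± 0.20; edgeR, adjusted p = 0.0229).

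**Figure D3:**
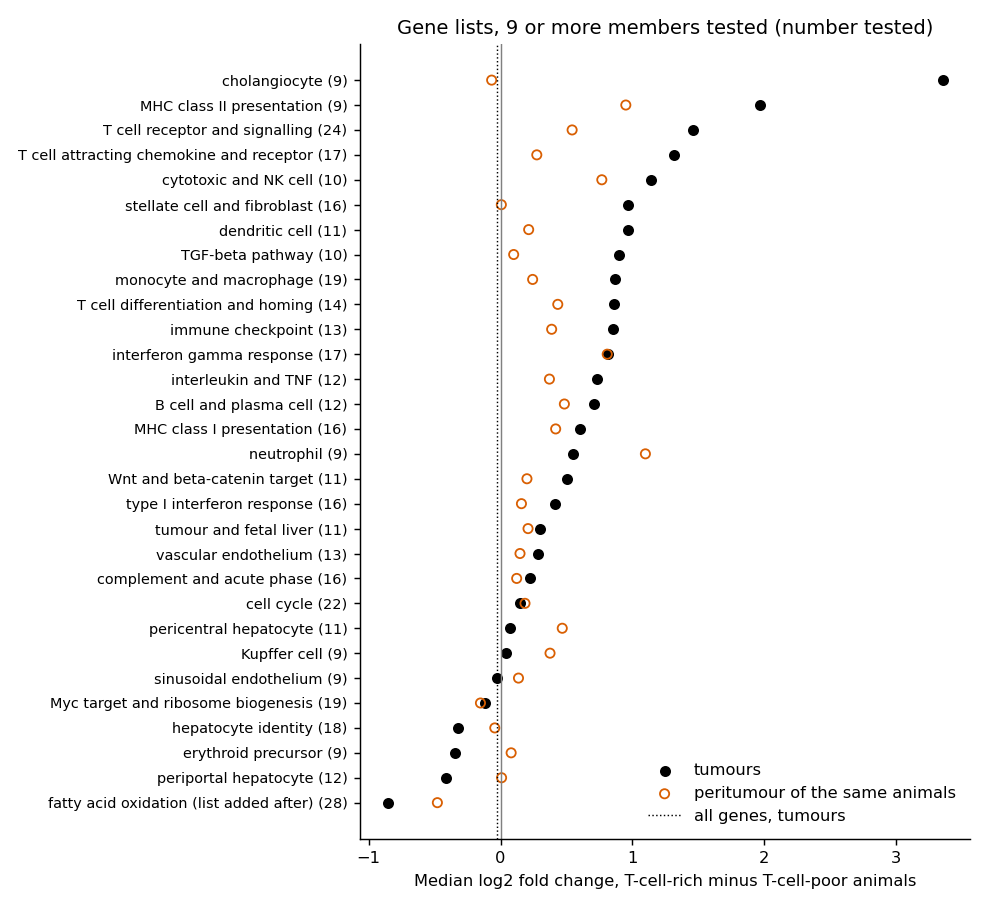
Median log2 fold change of the T-cell-rich over the T-cell-poor animals (horizontal axis) for the gene lists with at least 9 members tested, in tumours (filled) and in the peritumour tissue of the same animals (open). The bile duct list stands at 3.35 in tumours and -0.07 in peritumour tissue, the class II list at 1.97 and 0.95, and the fatty acid oxidation list at -0.85 and -0.48.

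Of the 34 genes that fell with Cd3, the 5 steepest with at least 10 CPM were Acaa1b, a thiolase that ends each round of peroxisomal fatty acid oxidation, Retsat, which saturates retinol, Styk1, a kinase-like membrane protein, Smad9, a Smad of the bone morphogenetic protein pathway, and Eci2, an isomerase needed for unsaturated fatty acids. Acaa1b was at 320, 383, 439, 532 and 328 CPM in the T-cell-rich tumours and at 768, 1240, 1050, 660 and 2682 in the T-cell-poor, with no overlap. The log2 difference was -1.84 ± 0.39 (edgeR, adjusted p = 0.236) and the slope -0.77 ± 0.19 (edgeR, adjusted p = 0.0499). Acaa1b has a near-identical neighbour, Acaa1a, which was also lower without overlap (-0.95 ± 0.25), and how reads were split between them is not known. Eci2 was at 78.0 to 140 CPM against 153 to 457 and Smad9 at 14.4 to 28.4 against 35.1 to 92.3, both without overlap. Retsat, at 122 to 370 against 366 to 964 CPM, overlapped only in F5 and M1.

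A list of 28 genes of fatty acid oxidation was put together after these falls had been seen, so its numbers describe the pattern and support nothing. All 28 were lower on average in the T-cell-rich class, with a median of -0.85. In 7 (25.0% of the list, beside 0.38% of all genes) the T-cell-rich class lay below without overlap: Acadm, Acadvl, Acaa1a, Acaa1b, Eci2, Ech1 and Etfa. Acadm, the medium-chain acyl-CoA dehydrogenase of mitochondria, was at 319, 253, 394, 375 and 307 CPM against 464, 485, 463, 438 and 952. It fell with Cd3 with a slope of -0.40 ± 0.09 (edgeR, adjusted p = 0.0446). Cyp4a10, a target of the receptor PPAR alpha that hydroxylates fatty acids, was at 69.9, 111, 70.9, 238 and 117 CPM against 231, 514, 661, 310 and 1133, where F9 lay just above M1. Its log2 difference was -2.36 ± 0.51 (edgeR, adjusted p = 0.236). The list's median stayed between -0.93 and -0.70 when each tumour was left out, and was -0.77 with the F tumours alone and -0.49 with 7 tumours a class.

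The hepatocyte identity list had a median of -0.32 with 3 of 18 above 0, and the periportal list -0.42 with 2 of 12 above 0. Without F2 these medians were -0.14 and -0.25, and with 7 tumours a class -0.021 and -0.086. The first was -0.15 without F5 and the second -0.25 without F1. No member of either passed or separated the classes. Alb, the main secreted protein of hepatocytes, was at 13839 to 30013 CPM against 9392 to 28207, with a log2 difference of -0.09 ± 0.35 (edgeR, adjusted p = 0.927) whose sign turned with totals alone as scaling. Glul, a target of Wnt signalling around the central vein, was at 160 to 344 against 112 to 419 CPM (0.07 ± 0.35; edgeR, adjusted p = 0.937; the sign turned among the F tumours). Myc, the transgene's gene, was at 274 to 622 CPM against 339 to 659, a difference of -0.31 ± 0.26 (edgeR, adjusted p = 0.597). Mki67, a marker of dividing cells, spread over 25.8 to 261 CPM and 25.2 to 286 CPM, and its difference of -0.39 ± 0.67 (edgeR, adjusted p = 0.809) turned positive among the F tumours. The cell cycle list had a median of 0.14 and the Myc target list -0.12, the latter at 0.05 with totals alone as scaling, which moved the median of all genes to 0.13.

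By these values, without any test of it, the T-cell-rich tumours differed among themselves. F3, F2 and F5 had the highest Cldn4, Epcam, Fscn1, Ltb, Foxp3, Ccl8 (8.03, 8.66 and 4.14 CPM, beside at most 1.34 elsewhere) and collagens. F9 and F7 had the highest Gzmb, Cxcl9 and Ciita. F3 and F2 have the number-dash code style and F5, F9 and F7 the letter-number style. Whether these differences go with the style was not tested.

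With the 5 highest against the 5 lowest of the 11 F tumours, chosen after the data were seen, edgeR also called 0 of 13161 genes, with 1981 at an unadjusted p under 0.05. In that contrast the median of the T cell receptor list was 1.08, of the T cell chemokine list 1.05, of stroma 1.07, of monocytes and macrophages 0.47 and of fatty acid oxidation -0.75. The class II median was 0.68 in place of 1.97 and that of class I -0.01 in place of 0.60. In this contrast the 5 lowest F tumours include F11, F4 and F10, which are middle tumours in the other.

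The peritumour tissue of the same animals was not used to choose the classes. Its Cd3 sum was 5.36, 2.99, 4.15, 6.77 and 4.51 CPM in the animals of F3, F2, F5, F9 and F7, and 3.98, 3.14, 1.99, 3.23 and 2.23 in those of M1, F1, F6, M2 and M3. The ranges overlapped through F2, M1, F1 and M2. The mean log2 level was higher by 0.70 in animals with a T-cell-rich tumour (two-sided exact permutation test, p = 0.0476, 5 against 5, smallest possible p 0.00794). That call was lost in several alternatives: p was 0.0556 with TMM-scaled totals and 0.19 with F animals alone, and leaving out 1 animal missed the threshold in 8 of 10 cases (0.0952 without F3, F9, F7, F6 or M3 and 0.0635 without F5, F1 or M2), whereas the difference stayed between 0.34 and 0.88 in all alternatives run. Over all 14 animals the log2 Cd3 sums of the tissues had Pearson's r = 0.539 (permutation p = 0.046) and Spearman's rho = 0.604 (permutation p = 0.0242). Over the 7 relations computed, the adjusted p of the first was 0.0805. Without F3 and F2, the tumours farthest from the median, r was 0.736 (permutation p = 0.00689). Within code styles r was 0.655 over 8 animals (exact permutation p = 0.0819) and 0.651 over 6 (exact permutation p = 0.178), and among the 11 F animals 0.397 (permutation p = 0.227). The tumour held more Cd3 than its peritumour tissue in F3, F2 and F5 (2.57, 3.54 and 1.52 times) and less in the other 11 animals (0.395 to 0.958 times).

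**Figure D4:**
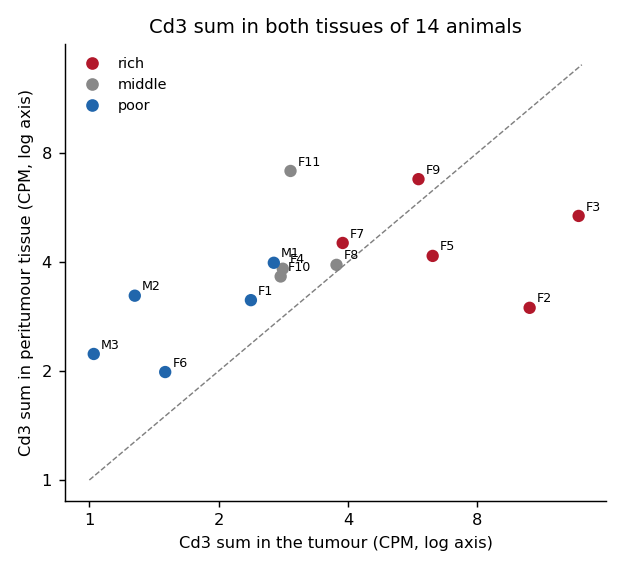
Cd3 sum in peritumour tissue (vertical, CPM, log axis) against that in the tumour (horizontal, CPM, log axis) of the same 14 animals; the dashed line marks equal levels. F3, F2 and F5 lie below the line and the other 11 animals above it, with F11 highest in peritumour tissue at 7.13 CPM.

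Across genes, peritumour tissue of the same animals showed no call: edgeR called 0 of 13198 genes with 449 at an unadjusted p under 0.05, and DESeq2 called 7. In 39 genes (0.295%) the animals with T-cell-rich tumours were all higher and in 30 (0.227%) all lower. Acaa1b was among the 30 and among the 7. Its peritumour level was 415, 781, 871, 657 and 658 CPM in the animals of F3, F2, F5, F9 and F7, and 897, 1576, 2115, 1370 and 2887 in those of M1, F1, F6, M2 and M3, a log2 difference of -1.49 ± 0.33 (edgeR, adjusted p = 1). The difference in peritumour tissue of Eci2 was -1.08 ± 0.28, of Retsat -1.27 ± 0.36 and of Hsd17b11, a dehydrogenase on lipid droplets, -0.95 ± 0.37, each with overlap. All 28 genes of the oxidation list were lower on average in the T-cell-rich animals, with a median of -0.48 beside -0.0020 over all genes.

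**Figure D5:**
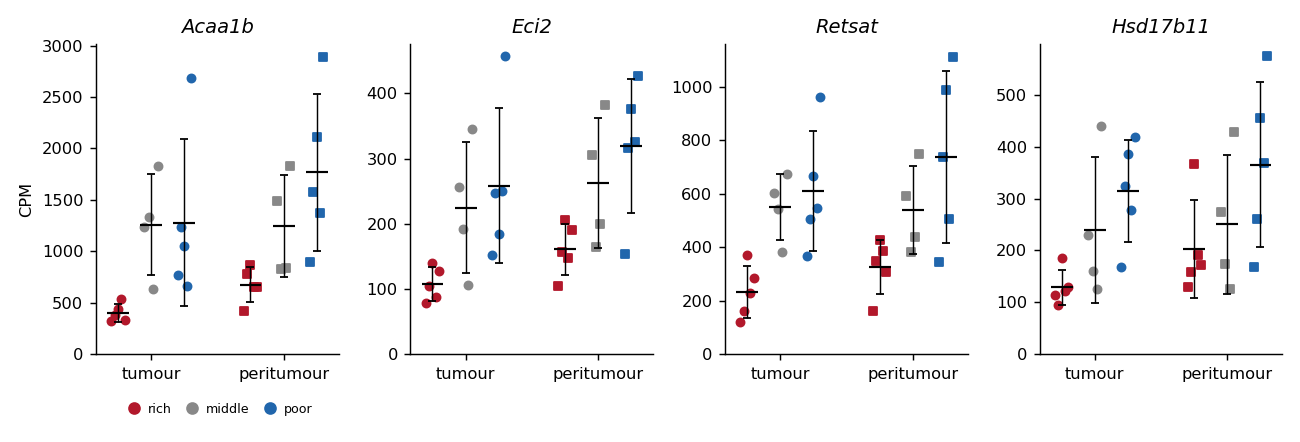
CPM (vertical) of 4 genes that fell with Cd3 in tumour (circles) and peritumour tissue (squares), by class of the animal's tumour (rich red, middle grey, poor blue); bars give the mean and SD of 5, 4 and 5 animals. Acaa1b does not overlap between the T-cell-rich and T-cell-poor animals in either tissue, while Retsat and Hsd17b11 overlap in both.

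Immune lists in peritumour tissue had medians of 0.54 for the T cell receptor list (19 of 20 above 0), 0.95 for class II (11 of 11, none without overlap), 0.81 for the interferon gamma response and 0.24 for monocytes and macrophages. The neutrophil and granulocyte precursor lists had medians of 1.10 and 1.17 there, above their 0.55 and 0.30 in tumours. H2-Ab1 was at 629 CPM in the peritumour tissue of F9, at 146, 85.3, 27.5 and 217 in that of F3, F2, F5 and F7, and at 57.2 to 158 in that of the T-cell-poor animals. The bile duct and stroma lists, by contrast, had peritumour medians of -0.07 and 0.01 between the classes: Cldn4 was at 1.87, 1.17 and 0.39 CPM in the peritumour tissue of F3, F2 and F5. Col15a1, apart in tumours, differed there by 0.08 ± 0.36 (edgeR, adjusted p = 1). A fit of tumour over peritumour tissue within animals, added after the data were seen, called 0 of 13695 genes as different between the classes (edgeR with the animal as a replicate block; 1561 at an unadjusted p under 0.05). In that fit the difference was 2.36 ± 0.58 for Col15a1 (edgeR, adjusted p = 0.354) and -0.28 ± 0.27 for Acaa1b (edgeR, adjusted p = 0.689). Prom1 was higher in the peritumour tissue of the T-cell-rich animals (1.70 ± 0.36), at 6.82 to 19.5 against 1.81 to 7.15 CPM, and was called by DESeq2 (adjusted p = 0.0235) but not by edgeR (adjusted p = 1).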

How the data were processed

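Poly(A)-selected liver RNA was sequenced in 28 libraries. The authors deposited estimated counts for each gene and library, per the file headers. They also deposited TPM values, per the same headers. The submitters' processing notes list DESeq2 1.4.5, RSEM 1.2.12, Bowtie2 2.2.5 and HISAT2 2.0.4 but not what each was used for. The table held 18182 genes; 1 row lacking a gene ID was dropped, 26 symbols turned into dates were looked up again by gene ID, and 3 mean columns of a group without samples here were not used. Of the count values 8.06% were not whole; counts were rounded. Library totals were 14777567 to 17576921, and no libraries of a group agreed within sampling noise (lowest index of dispersion 19.2). Each library pair carries its own animal code, so p-values measure the spread between animals.

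edgeR 4.0.16 in R 4.3.3 was run with TMM factors, filterByExpr and its quasi-likelihood test (robust option), with Cd3e, Cd3d and Cd3g left out of every count. P-values were adjusted by Benjamini and Hochberg's method with a threshold of 0.05. The fit was tested on simulated data with large changes and less spread than among these tumours. That test does not show how many differences the fit would miss here. The SE of a log2 fold change is its size over the square root of F. The fit with the Cd3 sum as a number was planned as an alternative, and its own alternatives were added after the data were seen. Alternatives included DESeq2 1.42.0, other scaling, no filter, covariates, other class sizes and left-out libraries. Genes were named if among the 5 steepest in either direction with a mean of at least 10 CPM, or among up to 2 passing members a list and direction, with a fixed set of T cell, liver and tumour genes; others named were picked after their values were seen. Some genes of the rule are not reported here. The classes, the 37 lists (514 symbols) and the tests were chosen with earlier results of these data known.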

Additional observations from a re-analysis of the deposited data

Results flagged for a closer look

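In classes of 5, the highest or lowest library was set against the rest by Dixon's gap test for the genes named above. It marked 30 of 178 sets of 5. The test's nominal rate is about 1 in 20, for genes not chosen by their values. Some genes here were named after their values were seen, so the count is a description. The values are in CPM.

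Tumour F2 stood above the other T-cell-rich tumours in 12 of these. It held Krt19 at 799, Spp1 at 708, Lyz2 at 615, Krt7 at 256 and Plagl1 at 150. It also held Ehf at 137, Cxcl16 at 135, Epcam at 126, Prom1 at 118, Cx3cl1 at 52.4, Madcam1 at 20.5 and Pdcd1 at 0.706. F9 stood above the other T-cell-rich tumours in Psmb8 at 125 and Cyp4a10 at 238.

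In the T-cell-poor class, F6 stood above the others in Afp at 1562, Krt19 at 39.0, Krt7 at 14.1, Slc13a3 at 15.0 and Pdcd1 at 0.125. It stood below them in Cd247 at 0.677. M2 stood above them in Cxcl9 at 77.4, Jchain at 30.7, Cd274 at 15.5 and Ccl8 at 1.34. M1 stood above them in Spp1 at 70.5, Cd8a at 3.16 and Cxcl13 at 0.269. M3 stood above them in Acaa1b at 2682 and Acadm at 952. In peritumour tissue of the T-cell-rich animals, Hsd17b11 in F5 was at 366.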

How the results depend on the processing

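The T-cell-rich and T-cell-poor tumours come from different animals, so pairing is possible only with the peritumour tissue of the same animal: that fit, with the animal as a replicate block, called 0 genes. The contrast of 5 against 5 tumours called 338 genes with DESeq2, 304 with the Cd3 sum as a number, and 0 to 1 with each library left out (1 without F6). In peritumour tissue the call count was 7 with DESeq2 and 0 in the other alternatives run.

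Over 14 tumours 270 genes rose and 34 fell with Cd3. These counts were 547 and 213 with DESeq2, 483 and 24 with library size alone, 480 and 63 with no filter, 35 and 9 with the letter as a covariate, 1 and 0 among F animals, 16 and 1 with the Cd3 sum over TMM-scaled totals and 109 and 7 by rank. They were 36 and 0 without F2, F4, F5 and F6, and 0 and 0 without F2, F3 and F5. The granulocyte precursor list summed to 178 to 426 CPM in tumours F2, F4, F5 and F6 and to at most 90.4 in the other tumours. Leaving out 1 tumour gave 21 (without M3) to 661 (without F6) that rose and 0 (without M3) to 110 (without M2) that fell. The cause was not tested.

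The peritumour Cd3 difference of 0.70 missed the threshold at 0.65 with TMM-scaled totals, at 0.88 with F animals only, at 0.83 with 4 tumours a class, at 0.83 without F2, F4, F5 and F6 and at 0.34 with the 5 highest and 5 lowest F tumours; leaving out 1 animal gave 0.56 to 0.86. Over all animals r was 0.397 among F animals, and 0.427 (without M3) to 0.71 (without F2) with 1 animal left out, and 12 of these 14 missed the threshold.

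Of 70 genes named and tested in the contrast, 37 passed with DESeq2, beside 338 of all 13166 genes tested. Many of the 70 were named by their values in these same libraries, so the 37 support nothing. Of the 70, 9 changed sign in some alternative. With the 5 highest and 5 lowest F tumours, Gzmb was at -0.11, B2m at -0.42, Alb at 0.091, Glul at -0.20 and Mki67 at 0.89. With F animals only, Clec4f was at 0.13, Alb at 0.36, Glul at -0.33 and Mki67 at 0.56, and with the letter as a covariate at 0.13, 0.37, -0.33 and 0.58. With code style as a covariate, Clec4f was at 0.011, Alb at 0.21 and Mki67 at 0.40. With library size alone, Clec4f was at 0.10 and Alb at 0.043. With 4 tumours a class they were at 0.38 and 0.20, and with 7 at 0.10 and 0.091. With classes from TMM-scaled totals Alb was at 0.21. Without F2, F4, F5 and F6, Clec4f was at 0.43, Plagl1 at -0.14 and Alb at 0.023. Without the M animals and F2, Clec4f was at 0.19, Krt19 at -1.33, Ehf at -0.043, Plagl1 at -1.02, Alb at 0.53, Glul at -0.23 and Mki67 at 0.13. Leaving out 1 library gave -0.31 to 0.64 for Clec4f, -0.25 to 5.92 for Krt19, 0.10 to 4.05 for Ehf, -0.60 to 3.62 for Plagl1, -0.33 to 0.11 for Alb, -0.09 to 0.45 for Glul and -0.80 to 0.15 for Mki67.

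Cd3 counts of 16 to 221 a tumour limit the order of the tumours, and all 3 M animals are in the T-cell-poor class beside 2 F animals.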
